A study of Rattus norvegicus with 60 samples.

Results

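Orm1, Crp, Apcs, Lbp, Cd14 and Saa4 are 6 genes, chosen by symbol, of the 34322 genes listed in the deposited counts, and all 6 symbols were found there. Orosomucoid (Orm1, also called alpha-1-acid glycoprotein) is a plasma carrier protein made by hepatocytes. C-reactive protein (Crp) and serum amyloid P component (Apcs) are short pentraxins, ring-shaped plasma proteins that bind damaged membranes and microbial surfaces and engage complement. Lipopolysaccharide-binding protein (Lbp) hands bacterial lipopolysaccharide (LPS) to Cd14, a receptor of myeloid cells that passes it to Toll-like receptor 4, and serum amyloid A4 (Saa4) is the constitutive serum amyloid A apolipoprotein of high-density lipoprotein. In the acute phase response, interleukin-6, interleukin-1 and glucocorticoids acting on hepatocytes change the output of plasma proteins, and orosomucoid is one of the strongly induced ones in the rat, where C-reactive protein is already abundant at rest.

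The study sequenced total RNA of liver and mesenteric adipose tissue, the fat around the gut, from Sprague-Dawley rats 5 months old. The tested animals had prenatal alcohol exposure (PAE), meaning that their dams breathed vaporized ethanol for 12 days between gestational days 8 and 20, or had a middle cerebral artery occlusion (stroke) 2 days before the tissue was taken. In each tissue there were 8 PAE stroke rats and 8 PAE naive rats, each with 4 males and 4 females, and 7 control stroke rats and 7 control naive rats, each with 3 males and 4 females. Control dams breathed room air, and naive rats had no occlusion and were littermates of stroke rats, but which rats shared a litter is not given in the sources used here. No sham-operated group is described in the labels, so anaesthesia and surgery cannot be told apart from the occlusion.

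The 30 liver libraries held 7.72 to 30.4 M counts (mega-counts, median 17.4 M) and the 30 fat libraries 9.81 to 25.4 M (median 16.4 M). Nuclear ribosomal RNA took 0.626% to 51.1% of liver counts and 0.469% to 50.0% of fat counts. In control stroke livers it was 17.9% to 51.1% in males and 1.4% to 2.2% in females. In PAE stroke livers females had 3.57% to 12.2%, and males 1.09% to 2.14% except male 2 (42.4%). Among naive livers, PAE males had 10.7% to 18.8% and control males 1.54%, 2.15% and 44.9%. Naive females had 1.01% to 8.84% with PAE and 0.626% to 2.56% as controls. Stroke and naive males of the same exposure thus differed in ribosomal RNA. In fat, PAE stroke males had 0.469% to 2.44% and control stroke males 12.6% to 17.5%, while the females of these groups overlapped. The liver libraries over 40% were all from males: control naive male 3, control stroke male 1 and PAE stroke male 2. Levels below are in CPM (counts-per-million), scaled by the trimmed mean of M-values (TMM) within a tissue. The hepatocyte marker Alb had 33628 to 73268 CPM in every liver library, and the adipocyte marker Adipoq had 1203 to 4426 CPM in every fat library. The 6 genes together took 0.274% to 1.14% of the counts of a liver library (median 0.547%) and 0.00284% to 0.0119% of those of a fat library. All 6 genes passed the filter on low counts in liver. In fat 4 passed (Orm1, Crp, Lbp and Cd14), and Orm1 passed there only through groups in which its counts were higher, so the number that passed is no support for a difference. Crp passed there only with male libraries, in which its counts were higher.

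The windows of 250 bases before the transcription start are shown for Orm1, whose liver level moved most after stroke, and for Crp and Apcs, pentraxin genes that lie close together on the same chromosome. They come from RefSeq on the build GRCr8, which is not the build the authors mapped to, and 4 of the 6 genes had a window in the table. Capitals mark letters that match TTNNGNAA, the motif of the C/EBP factors, or TGTTCT, the core hexamer of glucocorticoid receptor sites, on either strand. The windows are chr5:81788259-81788508 on the plus strand for Orm1, chr13:87693812-87694061 on the plus strand for Crp and chr13:87906509-87906758 on the minus strand for Apcs, all written 5′ to 3′ in the direction of the gene.
Orm1: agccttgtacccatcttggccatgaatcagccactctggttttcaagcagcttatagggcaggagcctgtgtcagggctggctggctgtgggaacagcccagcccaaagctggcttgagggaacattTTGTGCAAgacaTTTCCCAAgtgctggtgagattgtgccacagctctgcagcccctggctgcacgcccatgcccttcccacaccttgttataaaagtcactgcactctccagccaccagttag
Crp: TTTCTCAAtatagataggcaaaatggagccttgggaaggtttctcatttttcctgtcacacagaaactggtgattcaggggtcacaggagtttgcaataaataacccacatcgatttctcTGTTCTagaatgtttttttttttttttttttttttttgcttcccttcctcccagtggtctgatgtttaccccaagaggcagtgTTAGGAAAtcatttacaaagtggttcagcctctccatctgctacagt
Apcs: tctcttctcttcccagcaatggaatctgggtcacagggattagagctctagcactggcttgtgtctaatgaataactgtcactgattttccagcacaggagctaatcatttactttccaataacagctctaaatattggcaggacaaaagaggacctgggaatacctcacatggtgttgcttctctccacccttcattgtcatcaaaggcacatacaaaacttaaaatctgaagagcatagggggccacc
The Orm1 window held 2 matches to the C/EBP motif, at 123 to 116 and 111 to 104 bases before the start, the Crp window held 2 and the Cd14 window 1. The same letters occur in 37.2% of all 33469 RefSeq windows of this length. The single exact match to the glucocorticoid receptor hexamer lay in the Crp window, against 17.5% of all windows. Only exact letters were searched, so a site that departs from them is not counted in any window. No match to the STAT motif TTCNNNGAA (7.67% of all windows), the NF-kB motif (1.30%) or the HNF1 core GTTAAT (6.45%) was found in the 4 windows, and the Apcs window matched none of the 5 motifs. The reference lists 3 genes between Crp and Apcs, all pseudogenes.

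After stroke, Orm1 and Lbp rose in the livers of both exposure groups and Saa4 in those of control rats, while Crp, Apcs and Cd14 did not pass the test. Orm1 was 6.33-fold higher in PAE rats and 6.69-fold higher in control rats, and Lbp was 2.36-fold and 1.997-fold higher. In bulk tissue, more cells of a type and more RNA per cell cannot be told apart. In PAE livers 2 of the 6 genes passed the test as higher (Orm1 and Lbp), where 4.74% of the 15889 genes tested did. In control livers 3 of the 6 passed as higher (Orm1, Lbp and Saa4), where 2.00% of all genes did. None of the 6 passed as lower, against 2.26% of all genes in PAE and 0.95% in control livers. The tests were edgeR's quasi-likelihood test with Benjamini-Hochberg adjustment over all genes, at an adjusted p of 0.05, with males and females weighted equally.

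**Figure D1:**
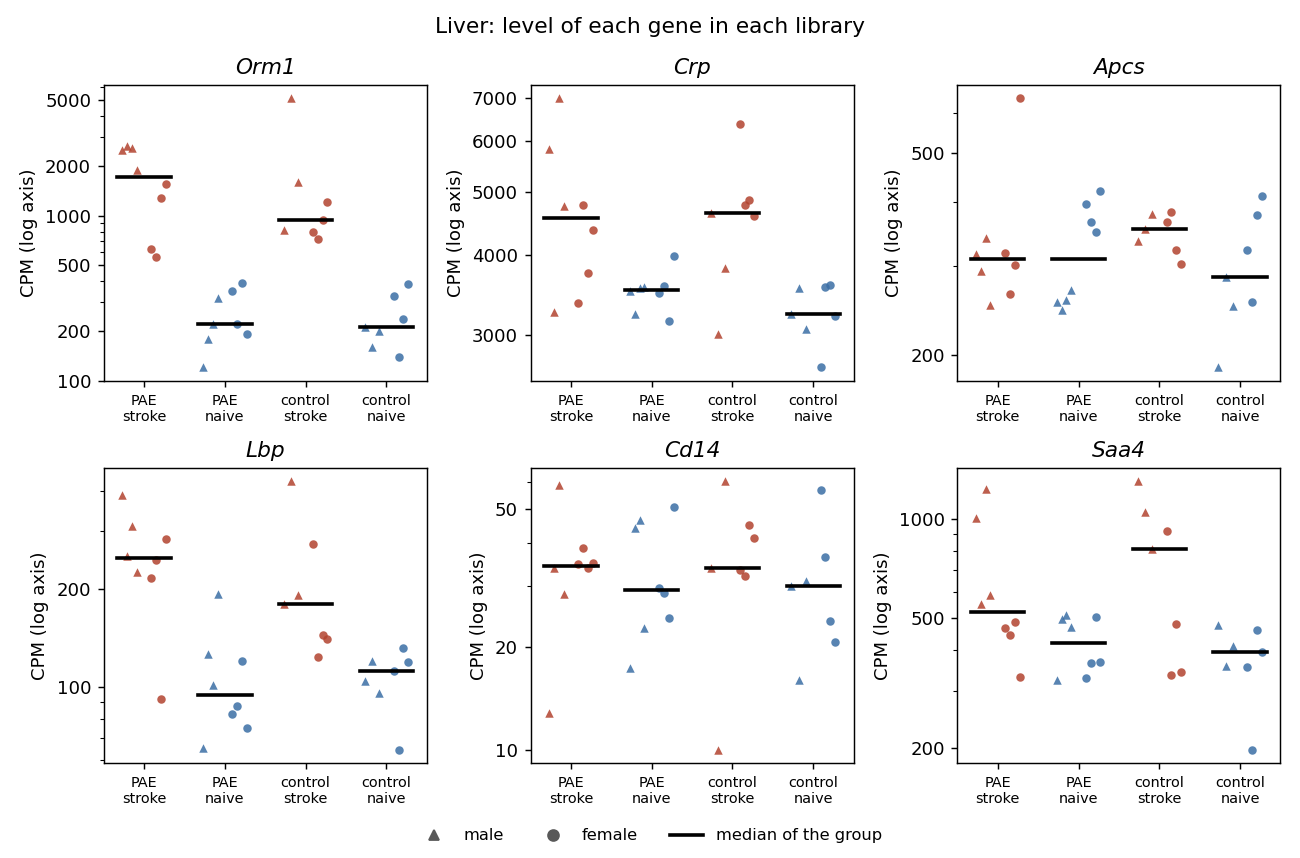
Level of each gene in each of the 30 liver libraries, in CPM on a log axis, for PAE stroke, PAE naive, control stroke and control naive rats (triangles male, circles female, bars the group median). For Orm1 the lowest stroke library (558 CPM) lies above the highest naive library (388 CPM).

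Orm1 had 558, 1718 and 2638 CPM (lowest, median and highest) in PAE stroke livers, against 120, 221 and 388 CPM in PAE naive livers. In control rats Orm1 had 720, 935 and 5117 CPM in stroke livers, against 139, 210 and 383 CPM in naive livers. Every stroke library lay above every naive library of its exposure group, which was so for 0.485% of all genes in PAE rats and 0.548% in control rats, counting genes that were higher. The log2 change was 2.66 ± 0.31 in PAE rats (SE, 8 against 8 libraries, edgeR adjusted p = 4.11e-06) and 2.74 ± 0.34 in control rats (7 against 7, edgeR adjusted p = 2.30e-05). The highest library, control stroke male 2, had 5117 CPM, and without it the control change was 2.21. In the authors' deposited table, where positive values go with higher stroke levels here, the Orm1 log2 change was 2.12 in PAE livers (adjusted p 5.35e-15) and 1.5 in control livers (adjusted p 1.24e-05).

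Crp had 3262, 4567 and 7001 CPM in PAE stroke livers, against 3150, 3529 and 3977 CPM in PAE naive livers. Control rats had 3007, 4640 and 6391 CPM in stroke livers, against 2671, 3238 and 3587 CPM in naive livers. The groups overlapped in both exposures, and 6 of 8 PAE and 6 of 7 control stroke libraries exceeded the mean of naive rats of the same sex. The log2 changes, 0.39 ± 0.13 in PAE and 0.44 ± 0.14 in control rats, missed the threshold (edgeR adjusted p = 0.0713 and 0.0995), while DESeq2 called both (adjusted p = 0.0311 and 0.0408). The authors' deposited table has 0.36 for PAE livers (adjusted p 0.0865) and 0.44 for control livers (adjusted p 0.0250).

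Apcs, the other pentraxin, had 251, 309 and 641 CPM in PAE stroke livers, against 245, 309 and 421 CPM in PAE naive livers. Among control rats it had 302, 354 and 383 CPM in stroke livers, against 189, 285 and 412 CPM in naive livers. Stroke and naive libraries overlapped throughout, and the log2 changes were 0.11 ± 0.14 in PAE and 0.28 ± 0.15 in control rats (edgeR adjusted p = 0.739 and 0.382). Without PAE stroke female 4, the library at 641 CPM, the PAE change was −0.085.

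Lbp had 92.1, 248 and 389 CPM in PAE stroke livers, against 65.2, 94.7 and 193 CPM in PAE naive livers. The control values were 124, 180 and 428 CPM in stroke livers, against 64.2, 112 and 132 CPM in naive livers. The groups overlapped, yet all 8 PAE and all 7 control stroke libraries exceeded the mean of naive rats of the same sex. The log2 change was 1.24 ± 0.24 in PAE rats (edgeR adjusted p = 0.00218) and 0.998 ± 0.26 in control rats (edgeR adjusted p = 0.0327). The control call was lost in 7 of the 14 fits that left out 1 library, with a change of 0.74 and an edgeR adjusted p of 0.147 without control stroke male 2. It was also lost without the 3 liver libraries over 40% nuclear ribosomal RNA, all from males (edgeR adjusted p = 0.0623).

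Cd14, the membrane partner of Lbp, had 12.9, 34.2 and 58.8 CPM in PAE stroke livers, against 17.4, 29.1 and 50.8 CPM in PAE naive livers. Among control rats the values were 10.03, 33.7 and 60.3 CPM in stroke livers, against 16.002, 29.9 and 56.8 CPM in naive livers. The ranges covered each other almost wholly, and the log2 changes of 0.064 ± 0.31 in PAE and 0.29 ± 0.34 in control rats did not pass (edgeR adjusted p = 0.945 and 0.747). Both signs turned when single libraries were left out. None of the 7 Kupffer cell markers (the resident liver macrophages) passed the test in either exposure group, and Clec4f among them had log2 changes of −0.014 in PAE and −0.16 in control livers. Of the 10 monocyte and macrophage markers, 2 rose in PAE livers (Vcan by 1.32 and Lyz2 by 0.72 on the log2 scale) and 1 in control livers (Vcan by 1.61). The list summed to 153 to 366 CPM in PAE stroke livers, against 119 to 337 CPM in PAE naive livers, and to 153 to 435 CPM in control stroke livers, against 237 to 418 CPM in control naive livers.

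Saa4 had 331, 520 and 1239 CPM in PAE stroke livers, against 323, 419 and 509 CPM in PAE naive livers. Control rats had 336, 814 and 1309 CPM in stroke livers, against 198, 393 and 476 CPM in naive livers. The ranges overlapped in both exposures, and the lower stroke values were mostly from females. The log2 change of 0.96 ± 0.22 passed in control rats (edgeR adjusted p = 0.0145) and that of 0.53 ± 0.21 did not in PAE rats (edgeR adjusted p = 0.122). The difference between these changes was itself −0.43 ± 0.30 (edgeR adjusted p = 0.999976). The control call was lost without the libraries over 40% nuclear ribosomal RNA, with sexes pooled and without control naive male 2 (edgeR adjusted p = 0.0637, 0.0811 and 0.0513 in that order).

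**Figure D2:**
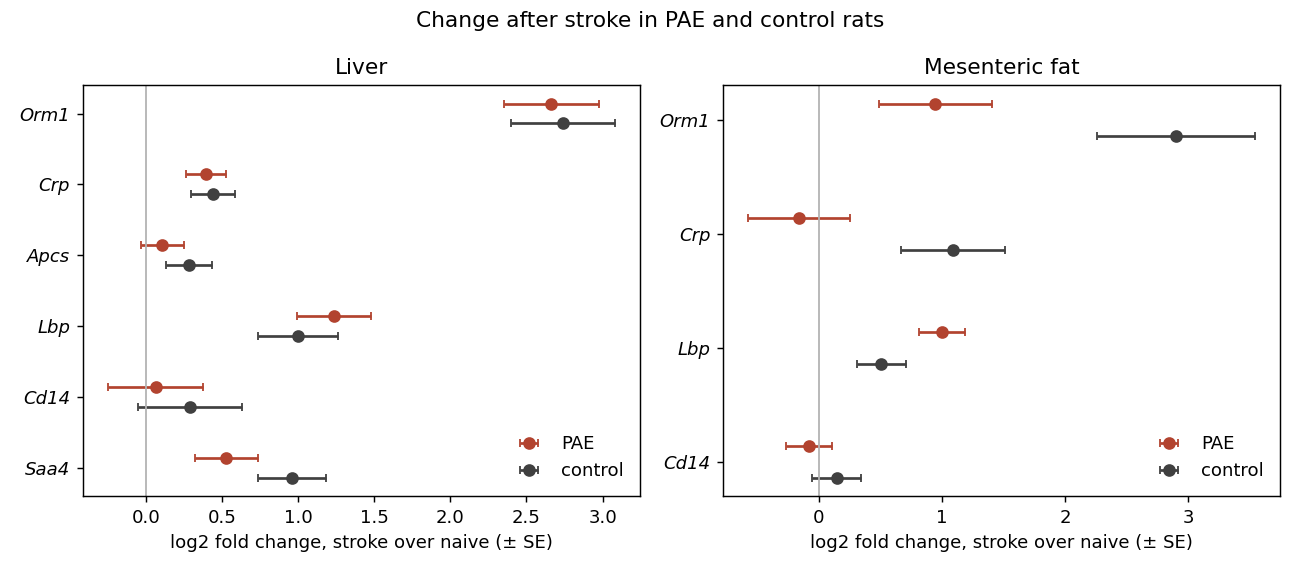
Log2 fold change of stroke over naive, with its standard error, for the genes tested in liver (left) and mesenteric fat (right), PAE rats above control rats. In liver Orm1 lies at 2.66 and 2.74 while Cd14 lies at 0.064 and 0.29.

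The liver libraries also differed in markers of other cells. Of 5 neutrophil markers tested, 4 rose in PAE and 3 in control livers after stroke, where 4.74% and 2.00% of all genes did. Over all liver libraries S100a9, Mmp8 and Cxcr2 had medians of 0.277, 0.109 and 0.141 CPM. They passed the filter on low counts only through libraries in which they were higher, so nothing is read from these counts. The 9 markers of the list summed to 2.38 to 9.24 CPM in PAE stroke livers, against 1.04 to 2.65 CPM in PAE naive livers. In control rats they summed to 2.59 to 7.28 CPM in stroke livers, against 0.735 to 3.26 CPM in naive livers. The 12 hepatocyte markers summed to 96528 to 157834 CPM in PAE stroke livers, against 99455 to 130093 CPM in PAE naive livers, and to 92323 to 136195 CPM in control stroke livers, against 89192 to 124470 CPM in control naive livers. Of these 12, 3 rose in PAE livers (Apoa1 by 1.48, Tat by 1.34 and Serpina1 by 0.72 on the log2 scale) and Cyp2e1 fell by 0.89. In control livers 2 rose, Apoa1 by 0.95 and Serpina1 by 0.67. Alb, the albumin gene, had log2 changes of 0.0077 in PAE and −0.013 in control rats. The part of these markers in the results was not tested.

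Other genes of the acute phase were read from 4 lists. Of 28 other acute phase plasma proteins tested in liver, 17 rose in PAE and 17 in control rats, with a median log2 change of 0.63 and 0.68 against 0.0020 and −0.0070 over all genes. Among them Kng1, a kininogen that is the precursor of kinins, rose by 3.30 ± 0.32 and 3.41 ± 0.35, and Hp, the haemoglobin-binding haptoglobin, by 1.69 ± 0.18 and 1.80 ± 0.19 (SE, log2). The kininogen gene Kng2 rose by 2.21 ± 0.23 and 2.20 ± 0.25, and Hpx, the haem-binding hemopexin, by 1.12 ± 0.17 and 1.19 ± 0.19.

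Of 21 inducers and transcription factors of the acute phase, 3 rose in each exposure group and none fell. They were Il1r1, the interleukin-1 receptor, with log2 changes of 0.95 ± 0.18 and 0.93 ± 0.20, its natural antagonist Il1rn with 1.62 ± 0.32 and 1.69 ± 0.35, and Stat3, which carries the interleukin-6 signal, with 0.67 ± 0.17 and 0.83 ± 0.18. Of 15 pentraxin partners, 3 rose and 1 fell in PAE livers, and 2 rose and 1 fell in control livers. C4bpa, a complement inhibitor that binds pentraxins, rose by 1.25 ± 0.15 and 1.17 ± 0.16, and Nptxr, the receptor of neuronal pentraxins, fell by 1.21 ± 0.28 and 1.64 ± 0.33 on the log2 scale. In PAE livers the complement proteases C1s and C1r rose by 0.71 ± 0.18 and 0.52 ± 0.14.

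Of 29 genes of LPS recognition and Toll-like receptor 4 signalling, edgeR called 0 in liver in either exposure group, with 5 at an unadjusted p under 0.05 in each and with 2 in PAE and 0 in control rats called by DESeq2. Their median log2 change was 0.0018 in PAE and 0.026 in control livers.

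Prenatal exposure itself moved none of the 6 genes past the threshold in liver. Among stroke livers, PAE minus control log2 differences were 0.036 ± 0.31 for Orm1, 0.053 ± 0.14 for Crp, −0.049 ± 0.15 for Apcs, 0.22 ± 0.25 for Lbp, −0.071 ± 0.33 for Cd14 and −0.29 ± 0.21 for Saa4. Among naive livers they were 0.12 ± 0.31, 0.0998 ± 0.14, 0.13 ± 0.15, −0.022 ± 0.25, 0.15 ± 0.33 and 0.13 ± 0.21 in the same order. For Orm1 the sign among stroke livers turned when single libraries were left out. edgeR called 0 of 15889 genes in each (0.00%). At an unadjusted p under 0.05 stood 6.48% of all genes among stroke and 2.18% among naive livers, and 0 of the 6 in either, and DESeq2 called 5 and 0 genes, with 0 of the 6.

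The difference of the stroke response between PAE and control livers was −0.080 ± 0.43 for Orm1, −0.047 ± 0.20 for Crp, −0.17 ± 0.21 for Apcs, 0.24 ± 0.35 for Lbp and −0.22 ± 0.46 for Cd14 on the log2 scale. edgeR called 0 genes (0.00%), with 2.86% of all genes and 0 of the 6 at an unadjusted p under 0.05, and DESeq2 called 0. The standard errors of 0.20 to 0.46 set the precision of these differences.

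In liver, Saa4 was higher and Apcs lower in males than in females. These 2 of 6 genes are close to the share of all genes that differed by sex (32.5%, with 16% higher and 16.5% lower in males), so the count is no result about the 6. Saa4 had 553, 1007 and 1309 CPM in stroke males, against 331, 454 and 919 CPM in stroke females, and 323, 471 and 509 CPM in naive males, against 198, 366 and 504 CPM in naive females. Its male minus female log2 difference, averaged over the 4 exposure and stroke groups, was 0.61 ± 0.15 (14 against 16 libraries, edgeR adjusted p = 0.00250). Apcs had 189, 255 and 285 CPM in naive males, against 254, 372 and 421 CPM in naive females, and 251, 335 and 379 CPM in stroke males, against 263, 319 and 641 CPM in stroke females. Its difference was −0.34 ± 0.11 (edgeR adjusted p = 0.0132), and 12 of 14 males lay below the mean of females of the same exposure and stroke group. After stroke, however, the male median (335 CPM) was above the female one (319 CPM). Control stroke means were 356 CPM in males and 343 CPM in females. The PAE stroke female mean of 381 CPM includes female 4 at 641 CPM. The sexes overlapped for both genes. The other differences were 0.43 ± 0.22 for Orm1, −0.024 ± 0.099 for Crp, 0.39 ± 0.18 for Lbp and −0.17 ± 0.23 for Cd14, and none passed. Of other markers, 4 of 10 of monocytes and macrophages and 4 of 6 of endothelium were lower in male livers, and of 12 of hepatocytes 1 was higher and 3 were lower. Monocyte and macrophage markers summed to 119 to 308 CPM in male and 202 to 435 CPM in female livers, endothelial ones to 301 to 696 CPM and 467 to 936 CPM, and hepatocyte ones to 92323 to 157834 CPM and 89192 to 136558 CPM. Their part in the sex differences was not tested.

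**Figure D3:**
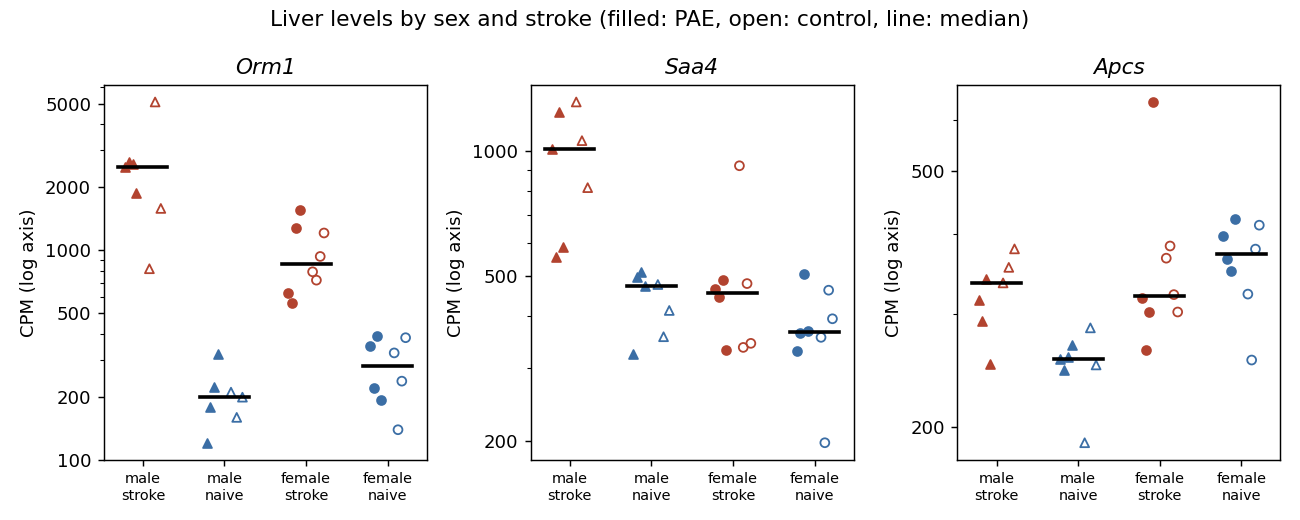
Liver CPM (log axis) of Orm1, Saa4 and Apcs in male stroke, male naive, female stroke and female naive rats, with PAE rats filled, control rats open and the median as a line. Stroke males reach a median of 2489 CPM of Orm1, stroke females 862 CPM.

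Orm1 had 817, 2489 and 5117 CPM in stroke males, against 120, 199 and 318 CPM in naive males. Stroke females had 558, 862 and 1555 CPM, against 139, 280 and 388 CPM in naive females. On mean log2 levels the stroke fold was 10.96 in males and 3.43 in females. The male minus female difference of the Orm1 response was 1.84 ± 0.44 on the log2 scale with an unadjusted p of 0.000258, which missed the threshold in edgeR's test over all genes (adjusted p = 0.111). DESeq2 called it (adjusted p = 0.00499), and so did edgeR without control stroke male 1 (adjusted p = 0.0415), while without control stroke male 2 the difference was 1.31 and the edgeR adjusted p 0.290. For Saa4 the stroke fold was 2.13 in males and 1.25 in females, and the difference of the response was 0.78 ± 0.30 (edgeR adjusted p = 0.553). The other response differences were −0.025 ± 0.20 for Crp, 0.40 ± 0.21 for Apcs, 0.36 ± 0.35 for Lbp and 0.12 ± 0.46 for Cd14. edgeR called 0 of the 6 genes here and 20 of all genes (0.126%), with 2 of the 6 and 7.29% of all genes at an unadjusted p under 0.05, and DESeq2 called 1 of the 6.

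Mesenteric fat held Lbp and Cd14 at levels well above the counting floor, a few reads of Orm1 and Crp, and almost none of Apcs and Saa4. A count of 3, the limit that a count of 0 allows, corresponded to 0.0912 to 0.420 CPM in a fat library. In the naive control rats, 5 of the 6 genes were higher in liver than in fat, where 34.3% of 19686 genes passed as higher, and in those 5 the tissues did not overlap (23.6% of all genes). Apcs and Saa4 failed the filter on low counts within fat. They entered this comparison through the liver libraries, in which they were higher, so the count of 5 is no support for a difference. The levels of this comparison were scaled over both tissues together. The title codes recur in both tissues.

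Orm1 averaged 327 ± 122 CPM in liver and 0.0533 ± 0.0418 CPM in fat (SD, n = 7 each), a ratio of summed counts of 7065 with a 95% counting interval of 3585 to 16366. Crp averaged 4537 ± 470 CPM in liver and 0.301 ± 0.186 CPM in fat, a ratio of 14491 (11021 to 19462). Apcs had 39534 counts in liver and 3 in fat, a ratio of 23089 with an interval of 7900 to 111967. For Saa4 the 7 fat libraries held 0 counts, so that its level was at least 30003-fold higher in liver, with 3 counts over the group as the floor. These intervals cover counting error only.

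Lbp averaged 149 ± 31.4 CPM in liver and 5.38 ± 0.981 CPM in fat, a log2 difference of 4.78 ± 0.28 (edgeR adjusted p = 6.72e-21). Cd14 averaged 42.5 ± 18.6 CPM in liver and 37.1 ± 7.41 CPM in fat, and its log2 difference of 0.19 ± 0.28 (edgeR adjusted p = 0.553) turned to −0.60 without scaling beyond the total count, a change of scaling that moved the log2 difference of a gene by −0.77. Monocyte and macrophage markers summed to 237 to 418 CPM in naive control liver and 411 to 3178 CPM in naive control fat within each tissue's own scaling. Which cells of either tissue held the Cd14 reads was not tested.

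In fat after stroke, Lbp rose in PAE rats as 1 of the 4 genes tested, where 3.31% of 18546 genes passed as higher. In control fat, where 3.26% of genes passed as higher, Orm1 was past the threshold, but it met the filter on low counts only through groups in which it was higher, so nothing is read from that count. Lbp had 8.02, 12.2 and 16.9 CPM in PAE stroke fat, against 3.91, 6.27 and 8.97 CPM in PAE naive fat. The control values were 7.70, 9.90 and 15.5 CPM in stroke fat, against 6.04, 7.56 and 9.95 CPM in naive fat. The ranges overlapped in both exposures, with all 8 PAE and 6 of 7 control stroke libraries above the mean of naive rats of the same sex.

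The Lbp log2 change was 1.002 ± 0.19 in PAE rats (edgeR adjusted p = 0.00410) and 0.51 ± 0.20 in control rats (edgeR adjusted p = 0.147). The difference of these changes was 0.49 ± 0.27 (edgeR adjusted p = 0.791). The authors' deposited table has 0.88 for PAE fat (adjusted p 0.000343) and 0.48 for control fat (adjusted p 0.0384). In one library, PAE stroke male 2, markers of B cells and lymph node summed to 572 CPM, against at most 13.2 CPM in any other fat library, and without it the PAE change was 0.94 (edgeR adjusted p = 0.00854). Of 10 adipocyte markers 4 fell in PAE fat and none in control fat, with sums of 10670 to 19709 CPM in PAE stroke fat, against 15041 to 27589 CPM in PAE naive fat. Among 5 neutrophil markers tested in fat, S100a8 rose by 3.67, S100a9 rose by 3.12 and Cxcr2 fell by 1.42 on the log2 scale in PAE rats, and S100a9 rose by 2.81 in control rats. S100a8 and S100a9 had medians of 0.247 and 0.429 CPM over all fat libraries. Both passed the filter on low counts only through libraries in which they were higher. The neutrophil list summed to 4.05 to 51.5 CPM in PAE stroke fat, against 5.27 to 12.7 CPM in PAE naive fat, and to 3.57 to 21.6 CPM in control stroke fat, against 3.37 to 16.2 CPM in control naive fat. The part of these markers in the Lbp result was not tested.

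**Figure D4:**
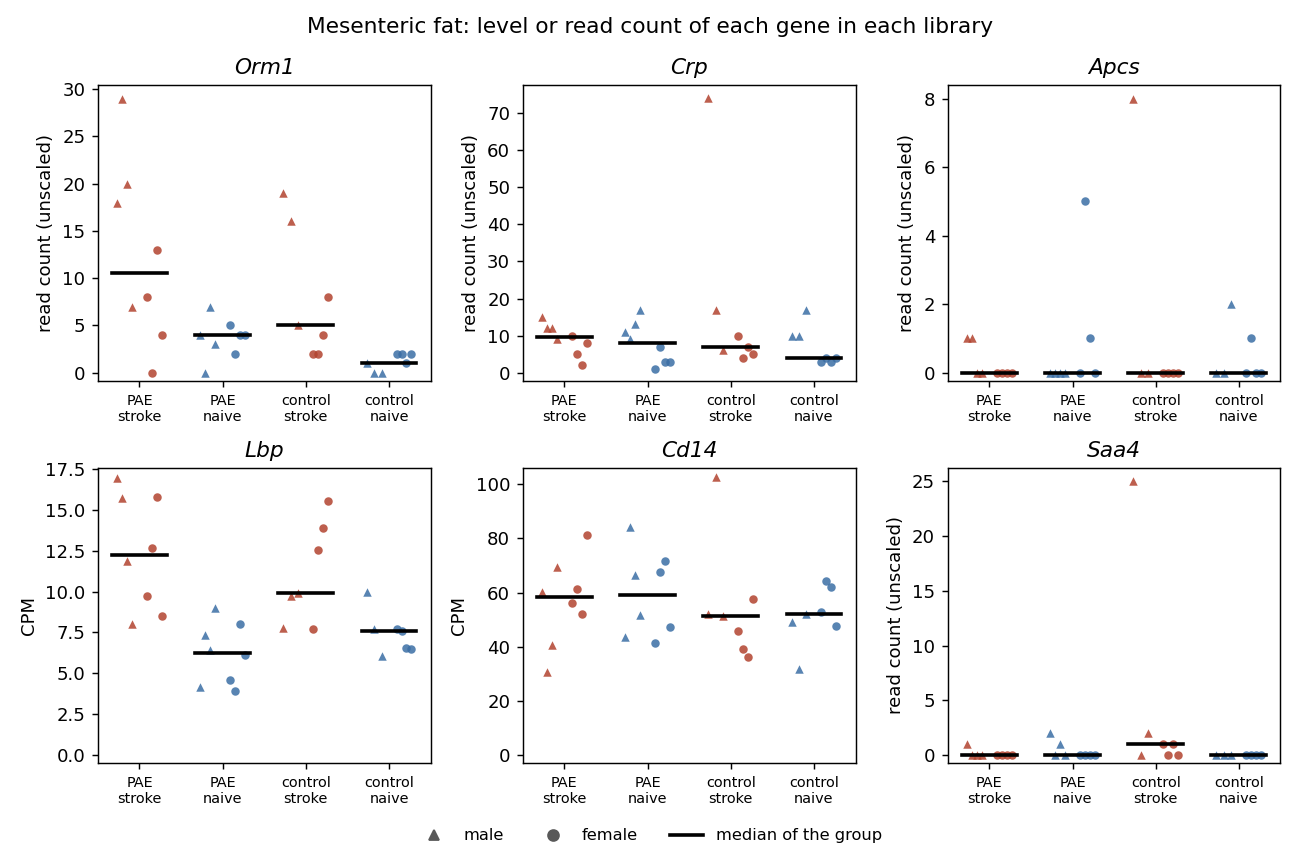
Mesenteric fat of the same groups: CPM of Lbp and Cd14 and unscaled read counts of Orm1, Crp, Apcs and Saa4 in each of the 30 libraries (triangles male, circles female, bars the group median). One control stroke male holds 74 reads of Crp, 25 of Saa4 and 8 of Apcs.

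Orm1 rested on few reads in fat. Males had 18, 29, 20 and 7 counts and females 8, 0, 13 and 4 in PAE stroke fat, against 4, 0, 7 and 3 in males and 5, 2, 4 and 4 in females of PAE naive fat. In control stroke fat males had 19, 16 and 5 counts and females 2, 2, 4 and 8, against 1, 0 and 0 in males and 2, 2, 1 and 2 in females of control naive fat. The higher counts were mostly in stroke males, and the ranges met or overlapped.

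Summed over libraries and scaled, the Orm1 ratio was 2.39 in PAE rats (95% counting interval 1.57 to 3.75) and 6.74 in control rats (3.19 to 16.4). These intervals cover counting error only and leave out the spread between rats, so they are no test of a stroke effect. edgeR's log2 change was 0.95 ± 0.46 in PAE rats (adjusted p = 0.207) and 2.90 ± 0.64 in control rats (adjusted p = 0.0108), the second a fitted value against naive counts at or under the floor of 3. Without control naive male 1 it was 3.84. With sexes pooled or only the compared groups in the fit, Orm1 failed the filter on low counts and gave no call, and DESeq2 gave it no adjusted p.

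Crp had 0.106, 0.430 and 0.611 CPM in PAE stroke fat, against 0.140, 0.441 and 1.07 CPM in PAE naive fat. Among control rats Crp had 0.235, 0.537 and 3.56 CPM in stroke fat, against 0.153, 0.280 and 0.885 CPM in naive fat. The groups overlapped, and log2 changes were −0.16 ± 0.41 and 1.09 ± 0.42 (edgeR adjusted p = 0.854 and 0.141). In fat Crp was called higher in males, where 4.53% of all genes passed as higher in males. Crp met the filter on low counts there only with male libraries, in which it was higher. Nothing is therefore read from that call as a count. It had 0.358 to 3.56 CPM in stroke males, against 0.106 to 0.669 CPM in stroke females, and 0.426 to 1.07 CPM in naive males, against 0.140 to 0.456 CPM in naive females. The ranges overlapped, with 11 of 14 males above the mean of females of the same exposure and stroke group. The difference was 1.15 ± 0.29 (edgeR adjusted p = 0.0204), and 0.76 without control stroke male 1, the library at 3.56 CPM. Male and female means of Crp were 0.425 and 0.400 CPM in PAE stroke fat and 0.737 and 0.279 CPM in PAE naive fat. In control fat they were 1.52 and 0.469 CPM after stroke and 0.671 and 0.231 CPM in naive rats. Higher in male fat too were 3 of 10 monocyte and macrophage markers, 2 of 6 genes of the Kupffer cell list (Vsig4 and Folr2) and 3 of 5 endothelial markers. These lists summed to 450 to 3178 CPM, 193 to 1196 CPM and 466.1 to 785 CPM in males, against 404 to 1004 CPM, 169 to 386 CPM and 369 to 554 CPM in females, and their part in the Crp difference was not tested. In fat the Kupffer cell list is no measure of Kupffer cells, since its sum was mostly Cd163 (156 to 1065 CPM) and Clec4f had at most 0.216 CPM. For Orm1, Lbp and Cd14 the sex differences of −0.31 ± 0.36, 0.033 ± 0.14 and 0.012 ± 0.14 did not pass.

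Control stroke male 1 stood apart in fat, with 74 reads of Crp, 25 of Saa4 and 8 of Apcs. Its 19 reads of Orm1 made 0.915 CPM, against 0.916 CPM in PAE stroke male 2 and 0.812 CPM in PAE stroke male 3. As a share of the liver level under the same title code, Crp was at 0.0423% here and at a median of 0.00486% in the 29 others. Saa4 was at 0.0507% and Apcs at 0.0633%, each against a median of 0. Orm1 was at 0.0617%, against a median of 0.0168% and a highest value of 0.127% in the others. Alb in the same fat library had 84.0 CPM, within the 16.6 to 310 CPM of all fat libraries. Whether liver RNA entered this library was not tested. Over the other fat libraries Apcs had at most 5 counts and Saa4 at most 2.

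Cd14 had 30.7, 58.2 and 81.2 CPM in PAE stroke fat, against 41.5, 59.1 and 84.0 CPM in PAE naive fat. For control rats these were 36.1, 51.2 and 103 CPM in stroke fat, against 31.7, 52.1 and 64.3 CPM in naive fat. The groups overlapped throughout, with log2 changes of −0.078 ± 0.19 and 0.15 ± 0.20 (edgeR adjusted p = 0.837 and 0.719). The 10 monocyte and macrophage markers had no call in fat after stroke in either exposure group.

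Prenatal exposure moved none of the 4 genes past the threshold in fat. Among stroke rats, PAE minus control log2 differences were 0.25 ± 0.44 for Orm1, −1.03 ± 0.40 for Crp, 0.22 ± 0.19 for Lbp and 0.017 ± 0.19 for Cd14. Among naive rats they were 2.21 ± 0.67 for Orm1, 0.22 ± 0.43 for Crp, −0.27 ± 0.20 for Lbp and 0.24 ± 0.20 for Cd14, of which the Orm1 value rests on 29 counts in PAE naive and 8 in control naive fat. The responses differed between PAE and control rats by −1.95 ± 0.80 for Orm1, −1.25 ± 0.59 for Crp and −0.22 ± 0.28 for Cd14. edgeR called 0 of 18546 genes in each of these 3 comparisons (0.00%). At an unadjusted p under 0.05 stood 1 of the 4 among stroke rats (Crp), against 3.79% of all genes, 1 among naive rats (Orm1), against 6.78%, and 2 for the response (Orm1 and Crp), against 6.07%. DESeq2 called 1, 5 and 2 genes in that order and 0 of the 4. The stroke response differed between males and females of fat by 2.62 ± 0.82 for Orm1, −0.48 ± 0.58 for Crp, −0.34 ± 0.27 for Lbp and 0.28 ± 0.28 for Cd14, and edgeR called 0 genes (0.00%). Orm1 alone of the 4 had an unadjusted p under 0.05, against 5.49% of all genes, and DESeq2 called 14 genes and 0 of the 4. Orm1 met the filter on low counts in fat only through groups in which it was higher. Nothing is therefore read from the counts given here that include it.

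Set against each other, the stroke responses of liver and fat differed by 0.78 ± 1.003 for Orm1, −0.052 ± 0.26 for Crp, 0.36 ± 0.23 for Lbp and 0.14 ± 0.27 for Cd14 (liver minus fat, log2). edgeR called 0 of these 4 and 7.99% of all genes, and 0 of the 4 had an unadjusted p under 0.05, against 21.2%, with 0 of the 4 called by DESeq2. Apcs and Saa4 had too few reads in fat for this comparison. In fat the list of other acute phase proteins had 3 of 19 genes higher in PAE rats, which were the siderophore-binding Lcn2 (3.38 ± 0.59), the ferroxidase Cp (0.54 ± 0.13) and the fibrinogen chain Fgg (2.03 ± 0.55), and none called by edgeR in control rats, where 8 had an unadjusted p under 0.05 and DESeq2 called 0. Irak1, a kinase below Toll-like receptors, was the 1 of 29 genes of the LPS list higher in control fat (0.34 ± 0.093). In PAE fat edgeR called 0 of them, with 6 at an unadjusted p under 0.05 and 2 called by DESeq2.

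Across the 30 liver libraries, the genes whose levels ranked most like Orm1 were Wfdc21 (Spearman rho 0.93), Kng2 (0.91) and Kng1 (0.89), out of 11396 genes whose log2 CPM averaged 1 or more. For Lbp they were Hpx (0.87), Hp (0.86) and Serpina1 (0.85), and for Saa4 they were Irak3 (0.82), Ect2l (0.81) and Sarm1 (0.79). For Crp they were Ap1s1 (0.79), Upb1 (0.79) and Cd81 (0.78), for Apcs Prss32 (0.73), Pradc1 (0.72) and Znhit1 (0.72), and for Cd14 Cyp27a1 (0.77), Bckdhb (0.75) and Ftcd (0.74). In the 30 fat libraries the nearest to Lbp was Hnrnpdl (0.78), to Cd14 Sgpl1 (0.73), to Orm1 Ebp (0.73) and to Crp Slco2b1 (0.68), of 13729 genes. These rank correlations describe the libraries, which share stroke groups, sexes and sequencing depth.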

How the data were processed

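RNA of 60 libraries was sequenced as paired reads of 150 nt after ribosomal RNA depletion with a stranded kit, as the labels state. HTSeq, HISAT2, DESeq2, Trimmomatic and the assembly rn7 are named in the submitters' processing notes, and versions and settings are not given in the sources used here. The deposited files hold raw counts per gene by symbol. The authors also deposited tables of log2 fold changes and adjusted p-values. They are quoted only where named.

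Groups come from the labels (tissue, exposure, stroke, sex). Replicates are separate rats as far as the labels show, and p-values measure the spread between these libraries. Pairs of libraries of one group differed by more than sampling noise (84 pairs, chi-square per degree of freedom 25.2 to 864). Counts were tested with edgeR 4.0.16 (R 4.3.3, filterByExpr with a minimum count of 10, TMM, robust quasi-likelihood fit of group means over all libraries of a tissue, or of both), two-sided, adjusted over all genes. CPM divides counts by the TMM-scaled total. The fit was tested on simulated data. Alternatives were DESeq2 1.42.0, RLE scaling, no filter, no ribosomal RNA genes, pooled sexes, fewer libraries, a replicate block and leaving out each library. The 6 genes and all lists were chosen with earlier results of these data known. Named genes were the 6 in every comparison, the 3 genes nearest each by rank correlation, and up to 4 called genes of each list per stroke comparison. Other called marker genes were named after their values were seen. Reference symbols matched 27234 of 34322 names. Gene positions on rn7 and protein sequences were not used here. The values of 1 called gene of the pentraxin partner list are not reported here.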

Additional observations from a re-analysis of the deposited data

Results flagged for a closer look

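In liver 4 values lay far from the other 3 of their sex and group. They were PAE naive male 2 with 3230 CPM of Crp, control stroke female 1 with 6391 CPM of Crp and 275 CPM of Lbp, and PAE stroke female 4 with 641 CPM of Apcs. The gap to the nearest other library, divided by the range of the group, was above Dixon's critical value for 4 samples. 52 groups of 4 were examined and chance flags about 1 in 20 of such groups.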

How the results depend on the processing

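All 6 genes were recomputed in every comparison. Of 2387 recomputed gene values, 2269 kept direction and side of the threshold, 14 lost the call, 9 gained it and 95 changed sign. In control livers 1 of the 6 genes was called with sexes pooled and 1 without libraries over 40% nuclear ribosomal RNA, and 1 to 3 when 1 library was left out, against 3. In each of these 3 settings that left 1 call it was for Orm1, and Lbp and Saa4 lost theirs. In control fat 0 were called by DESeq2, with sexes pooled or with the compared groups only, against 1, since Orm1 then failed the filter or had no adjusted p. For the liver response of males minus females, 1 was called by DESeq2, and 0 to 1 when 1 library was left out, against 0. The Orm1 and Lbp calls in PAE livers and the Lbp call in PAE fat held under all 24 settings run for each.

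Every sign change was of a value that did not pass the test. Without libraries over 40% nuclear ribosomal RNA, Orm1 PAE minus control among stroke livers was −0.20, the Crp interaction in liver 0.14 and Cd14 male minus female in fat −0.024. With sexes pooled the Orm1 interaction in liver was 0.014. Without scaling beyond the total, Cd14 liver minus fat was −0.60, and the responses of liver minus fat were −0.034 for Lbp and −0.29 for Cd14, a scaling that moved a gene by −0.43. The cause of the other changes was not tested. Leaving out 1 library changed the sign of these log2 values, given as lowest to highest. For stroke minus naive in control rats in liver, it was Cd14 −0.070 to 0.52. For stroke minus naive in PAE rats in liver, it was Apcs −0.085 to 0.18 and Cd14 −0.16 to 0.20. For PAE minus control among stroke rats in liver, it was Orm1 −0.17 to 0.57, Crp −0.043 to 0.14, Apcs −0.24 to 0.022 and Cd14 −0.30 to 0.28. For PAE minus control among naive rats in liver, it was Orm1 −0.025 to 0.22 and Lbp −0.18 to 0.082. For the exposure and stroke interaction in liver, it was Orm1 −0.29 to 0.45, Crp −0.14 to 0.041 and Cd14 −0.45 to 0.13. For male minus female in liver, it was Crp −0.068 to 0.016. For the response of males minus females in liver, it was Crp −0.12 to 0.054 and Cd14 −0.25 to 0.34. For stroke minus naive in control rats in fat, it was Cd14 −0.058 to 0.23. For stroke minus naive in PAE rats in fat, it was Crp −0.29 to 0.025 and Cd14 −0.18 to 0.013. For PAE minus control among stroke rats in fat, it was Orm1 −0.024 to 0.45 and Cd14 −0.081 to 0.22. For male minus female in fat, it was Lbp −0.016 to 0.082 and Cd14 −0.090 to 0.060. For the response of liver minus fat, it was Crp −0.16 to 0.34 and Cd14 −0.056 to 0.25.

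With the number in the titles as a replicate block, 2 of the 6 genes were called in PAE livers and 2 in control livers, where Lbp lost its call (edgeR adjusted p = 0.0508), 1 in PAE and 1 in control fat, and Orm1 PAE minus control among stroke livers was −0.021. With the title code as a replicate block across tissues, 5 genes were called for liver minus fat and the Crp response of liver minus fat was 0.039. Same-numbered libraries had a median correlation of deviations of 0.017 in liver (−0.23 to 0.33) and 0.031 in fat (−0.53 to 0.43). The numbers were therefore not taken to pair rats within a tissue. Across tissues the median was 0.086 for the same title code (0.022 to 0.21), against −0.036 for other numbers of the same group (−0.21 to 0.11). The main fit of both tissues held no term for the title code. Whether a code stands for the same rat in both tissues was not settled. Few reads limit Orm1, Crp, Apcs and Saa4 in fat.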
